A study of Mus musculus with 7 samples.

Results

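The complement, coagulation and fibrinolysis systems were described here through 35 genes in the lungs of bleomycin-challenged mice with and without hyperbaric oxygen (HBO). The genes were taken as a list by symbol, which was chosen with earlier results of these data known. All 35 were found among the 55401 genes of the deposited count table and passed the filter on low counts. RNA-seq was made on right lung lobes of male C57BL/6 mice aged 6 to 8 weeks, all of which had received bleomycin, an antitumor drug used to injure the lung until it scars. The BLM group (n = 4) had no HBO treatment, and the BLM+HBO group (n = 3) was exposed to HBO at 2.5 ATA for 90 min per day on 14 consecutive days from day 7 after bleomycin. All lungs were taken at day 21. Per the labels the BLM mice spent the same time in the chamber without pressurized pure oxygen, whereas the Supplementary methods call them untreated. There was no group without bleomycin, so every difference below is between bleomycin-injured lungs.

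Complement is a cascade of proteases and binding proteins that tags microbes and dying cells. It is started by C1q (the classical pathway), by lectins or by spontaneous turnover of C3 (the alternative pathway), and it ends in a membrane pore, while small fragments of C3 and C5 attract and activate leukocytes through their receptors. Coagulation starts when tissue factor meets plasma factor VII and ends in cross-linked fibrin, and fibrinolysis removes fibrin through plasmin, which the urokinase and tissue plasminogen activators produce and serpins hold back. In the injured lung these systems act outside the blood vessels too, since macrophages, fibroblasts, epithelium and endothelium make many of their components.

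Most of the listed genes were lower in BLM+HBO. The log2 fold change of BLM+HBO over BLM was below 0 for 28 of the 35 genes, with a median of -0.42, against a median of 0.0071 over the 17465 genes tested. A gene was called where edgeR gave P below 0.05 before adjustment and the fold change passed 1.5. By this rule 15 members were lower, where 2.89% of all genes tested were called lower, and 1 member was higher, where 3.4% of all genes were. DESeq2 gave the same numbers of members, 15 and 1, where it called 3.04% and 3.68% of all genes. The 15 were the 3 chains of C1q, the alternative pathway protease Cfb, the regulator Cfi, the receptors C3ar1, C5ar1 and Vsig4, tissue factor (F3), the fibrin cross-linking subunit F13a1, the inhibitor Tfpi2, both plasminogen activators (Plau and Plat) and the serpins Serpine2 and Serpinb2. The member that rose was Cr2, a complement receptor of B cells. By system, 8 of 23 complement genes were lower (median log2 fold change -0.38), and so were 7 of 12 coagulation and fibrinolysis genes (median -0.66). After Benjamini-Hochberg adjustment over all genes tested, edgeR called 0 members at adjusted P below 0.05, as it did over all genes (0%), although before adjustment 16 members were lower at P below 0.05 with any fold change (5.54% of all genes) and 1 was higher (5.11%). The lowest adjusted P of a member was 0.423 by edgeR. DESeq2 called 3 members after adjustment, C1qc, Cfi and C5ar1, where 0.704% of all genes were called.

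**Figure D1:**
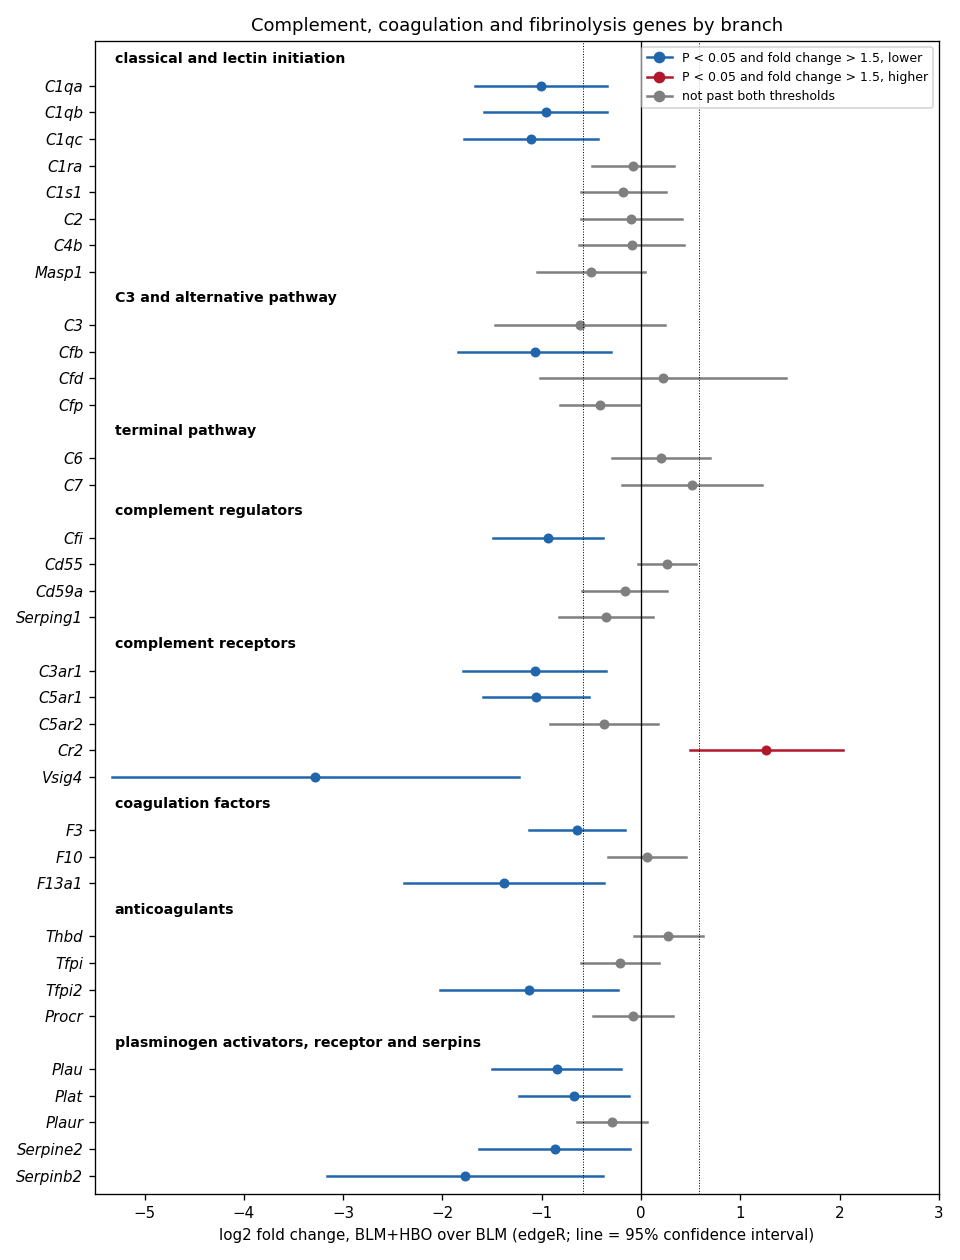
Log2 fold change of BLM+HBO over BLM by edgeR for each of the 35 genes, grouped by branch, with 95% confidence intervals as lines and dotted lines at a fold change of 1.5 in either direction. Blue points are the 15 genes past both thresholds and lower, the red point is Cr2, and Vsig4 lies furthest from 0, at -3.28, with the widest interval.

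Between 18157161 and 26365969 reads were counted per mouse, and all levels below are CPM, the reads of a gene scaled to the TMM-normalized size of its library. The libraries within each group were further apart than sampling noise allows, and each mouse was 1 replicate. BLM+HBO 2 stood nearer to the BLM mice than to its own group, with a chi-square per gene of 13 to 34.3 against the BLM libraries and 57.5 to 64.3 against BLM+HBO 1 and BLM+HBO 3. The same held for the listed genes. In BLM+HBO 1 and BLM+HBO 3, 24 and 28 of the 35 genes lay below the range of the BLM mice. In BLM+HBO 2, 9 lay below it and 6 above it. The share of all genes outside the BLM range was not counted for single mice, so these counts have no background beside them. Without BLM+HBO 2, edgeR called 20 members lower, where 5.41% of all genes were, 1 higher (5.29%) and 8 at adjusted P below 0.05, where 1.49% of all genes were. The lung markers were present in every library, with summed levels of 2276 to 3941 CPM for the 4 alveolar type 1 genes, of which 0 were called, and for the 5 alveolar type 2 genes, of which 1 was called higher, 8087 to 14585 CPM in BLM and 10294 to 25584 CPM in BLM+HBO. For club cells 2 of 4 genes were called higher, with 5567 to 12059 CPM in BLM and 9443 to 19475 CPM in BLM+HBO. Heart muscle genes were higher as well, 7 of 8 past both thresholds, with 64.4 to 187 CPM in BLM and 155 to 668 CPM in BLM+HBO, and their part in the results below was not tested. The summed level of 7 hepatocyte genes, including albumin, of which 3 were tested and 0 called, was 3.16 to 3.95 CPM in BLM and 4.31 to 6.60 CPM in BLM+HBO, so that transcripts of the liver, the main source of plasma complement and clotting factors, were near 0 in these libraries. In bulk tissue, fewer cells of a type and less RNA per cell cannot be told apart.

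**Figure D2:**
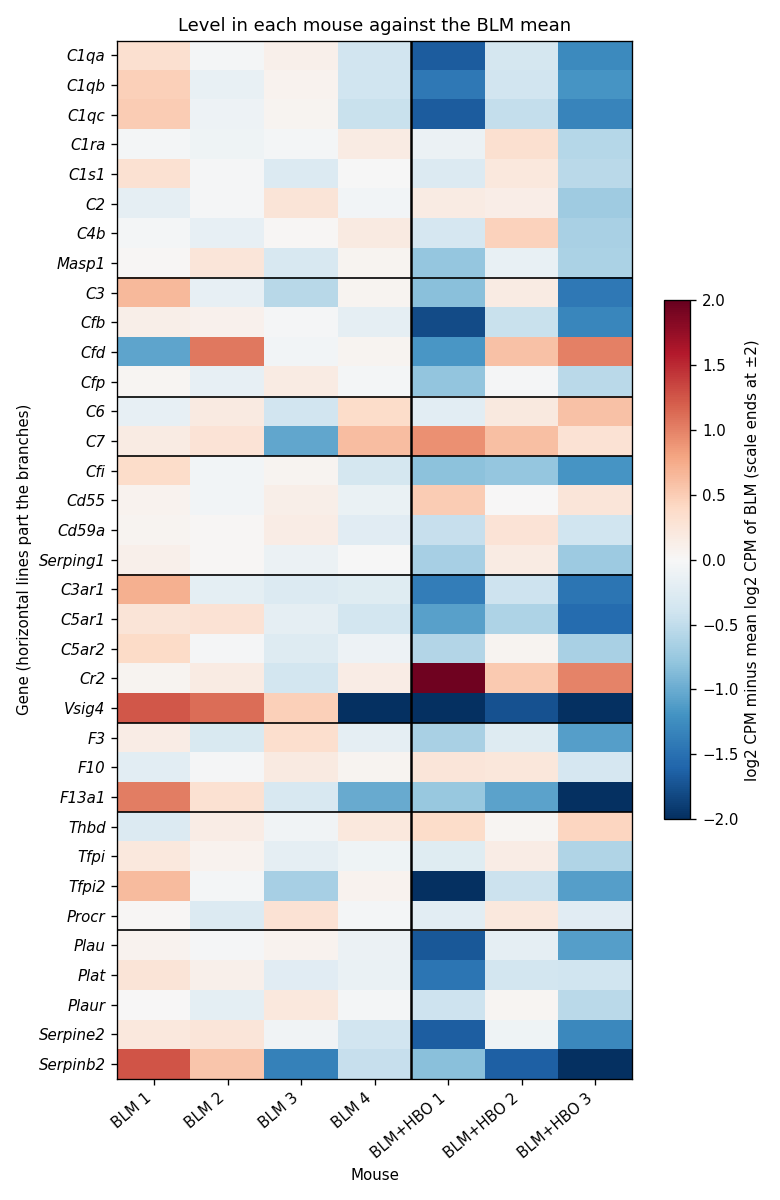
Log2 CPM of each gene in each mouse minus the mean log2 CPM of the BLM mice, with blue below and red above that mean, the scale ending at 2 in either direction, and horizontal lines between the branches. The columns of BLM+HBO 1 and BLM+HBO 3 are mostly blue, and that of BLM+HBO 2 is paler, with 9 genes below the BLM range against 24 and 28. The share of all genes below that range was not counted for single mice.

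The sequence upstream of the start was read for the 25 members with an entry among 32851 RefSeq promoters of GRCm38.p6, and 12 motifs were searched on both strands in the 250 bases before each start. Members without an entry were Cfb, C4b, Serping1, Plat, C1qa, Thbd, C2, Cfi, Plau and Masp1. A member was counted where any of its entries held the motif, whereas the share of all promoters was taken over single entries. A member with several entries thus had more chances of a match, and the numbers below are not like measures. The AP-1 motif TGANTCA, bound by Fos and Jun proteins, was found in 6 of the 25 (C3ar1, F3, Plaur, Procr, Serpinb2 and Tfpi2) and in 6.75% of all promoters. The hypoxia response core ACGTG was found in 2 of the 25, F10 and Tfpi2, and in 16.6% of all promoters, and its variant GCGTG was found in 3 of the 25 and in 28.2% of all. The Maf core TGCTGA was found in 9 of the 25 and in 16.1% of all promoters. The ETS core AGGAAG and the SP1 motif GGGCGG were each found in 9 of the 25, and in 29.5% and 32.7% of all promoters. The C/EBP motif TTGCNNAA was found in 6 of the 25 (9.56% of all), the PU.1 motif GAGGAAG, which contains the ETS core, in 5 (10.6%), the TATA motif TATAAA in 4 (12.4%) and the STAT motif TTCNNNGAA in 2 (7.02%). The NF-kappaB and EBF motifs were found in 0 of the 25, and in 0.14% and 0.779% of all promoters. Of the 10 members called lower with an entry, 5 held the Maf core, 5 the ETS core, 5 the SP1 motif and 4 the AP-1 motif, and each other motif was in 0 to 2. These matches are a description of the letters and not of binding. For their place in the results below, the promoters of 1 C1q chain, of 1 receptor, of tissue factor and of Serpinb2 are shown 5′ to 3′ in the direction of transcription, chosen after the matches were counted. Capitals mark TGCTGA in C1qb and TGANTCA in the others, and F3 holds the motif at 2 places.
C1qb (GRCm38.p6, chr4:136886201-136886450, minus strand): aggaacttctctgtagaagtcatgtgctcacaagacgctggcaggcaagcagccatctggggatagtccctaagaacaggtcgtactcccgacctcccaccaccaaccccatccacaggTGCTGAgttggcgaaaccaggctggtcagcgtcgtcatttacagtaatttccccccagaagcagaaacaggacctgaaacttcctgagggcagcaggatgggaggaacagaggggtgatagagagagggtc
C3ar1 (GRCm38.p6, chr6:122856158-122856407, minus strand): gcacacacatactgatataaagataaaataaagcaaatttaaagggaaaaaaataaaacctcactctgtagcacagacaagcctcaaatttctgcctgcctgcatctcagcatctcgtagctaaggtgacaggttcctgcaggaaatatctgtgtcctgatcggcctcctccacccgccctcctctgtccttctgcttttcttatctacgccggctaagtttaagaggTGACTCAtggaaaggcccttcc
F3 (GRCm38.p6, chr3:121723287-121723536, plus strand): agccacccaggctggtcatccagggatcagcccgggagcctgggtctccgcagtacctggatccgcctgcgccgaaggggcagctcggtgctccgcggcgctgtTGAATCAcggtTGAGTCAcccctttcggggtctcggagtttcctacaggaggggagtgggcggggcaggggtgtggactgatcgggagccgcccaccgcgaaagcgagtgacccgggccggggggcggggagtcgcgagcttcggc
Serpinb2 (GRCm38.p6, chr1:107511173-107511422, plus strand): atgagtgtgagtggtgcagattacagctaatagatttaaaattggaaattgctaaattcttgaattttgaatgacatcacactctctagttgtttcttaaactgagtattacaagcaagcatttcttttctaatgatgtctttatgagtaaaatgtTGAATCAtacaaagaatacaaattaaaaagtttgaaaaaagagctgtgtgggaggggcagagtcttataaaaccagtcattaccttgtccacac

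Each log2 fold change below comes from edgeR, with its standard error (SE) and its 95% confidence interval (CI) in parentheses where they are given, and a gene is said to rise or fall where it was called. In the branch that starts the classical and lectin pathways, the 3 chains of C1q fell together and the other 5 genes did not pass the thresholds. C1q is the recognition protein of the classical pathway and is made in tissues mainly by macrophages and dendritic cells. Its genes lie side by side on chromosome 4, within 18675 bases (chr4:136880129-136898803, minus strand, GRCm38), in the order C1qb, C1qc and C1qa, and C1qa had the highest level per exon length of all 35 genes, with a mean of 307 CPM per kb over the 7 mice. C1qa (ENSMUSG00000036887.5, chr4:136895917-136898803) was at 502, 388, 432 and 306 CPM in BLM 1 to 4 and 127, 315 and 165 CPM in BLM+HBO 1 to 3. The BLM+HBO mice lay below the BLM mice except that BLM+HBO 2 was just above BLM 4, and the means were 407 ± 82.2 CPM in the BLM mice (SD, n = 4) and 202 ± 99.4 CPM in the BLM+HBO mice (SD, n = 3), a log2 fold change of -1.01 (SE 0.29, 95% CI -1.67 to -0.35). C1qb (ENSMUSG00000036905.8, chr4:136880129-136886187) was at 467, 305, 356 and 255 CPM in BLM 1 to 4 and 125, 259 and 149 CPM in BLM+HBO 1 to 3, with the same overlap, and had a log2 fold change of -0.96 (SE 0.28, 95% CI -1.58 to -0.34). C1qc (ENSMUSG00000036896.5, chr4:136889804-136893065) was at 375, 246, 274 and 193 CPM in BLM 1 to 4 and 83.2, 189.9 and 106 CPM in BLM+HBO 1 to 3. Its groups did not overlap, and it had a log2 fold change of -1.11 (SE 0.30, 95% CI -1.78 to -0.44). Leaving out each mouse in turn gave log2 fold changes of -1.48 to -0.76 for C1qa, -1.34 to -0.76 for C1qb and -1.53 to -0.88 for C1qc, and each of these genes was called in all 7 fits.

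The chains were also compared with one another in each mouse. C1qa was 1.12 to 1.33 times C1qb per exon length in BLM and 1.06 to 1.27 times in BLM+HBO, and C1qc was 0.428 to 0.454 times C1qb in BLM and 0.374 to 0.413 times in BLM+HBO, ranges that did not overlap. In all, 9 such ratios were computed over the listed genes and markers, and 3 of them showed no overlap of the groups, with no test. Of 8 markers of monocytes and interstitial macrophages, 4 were called lower, Adgre1, Ms4a7 and Mrc1 among them. The other 4 were not called, with log2 fold changes of -0.23 for Csf1r, -0.11 for Cx3cr1, 0.05 for Ccr2 and 0.47 for Ly6c2. The summed level of the 8 was 695 to 956 CPM in BLM and 468 to 684 CPM in BLM+HBO. Of 6 alveolar macrophage genes, 2 were called lower (Marco and Chil3) and 1 higher (Krt79), with a summed level of 635 to 2054.5 CPM in BLM and 587 to 738 CPM in BLM+HBO. No marker of either list was at 0 in every mouse. The part of these cells in the fall of C1q, and in that of C3ar1, C5ar1, Vsig4, F13a1 and Serpinb2 below, was not tested.

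The components that act after C1q were not called. C1ra and C1s1 encode the serine proteases of the C1 complex. C1ra had 129 ± 10.1 CPM in the BLM mice (SD, n = 4) and 122 ± 37.4 CPM in the BLM+HBO mice (SD, n = 3), with a log2 fold change of -0.08 (95% CI -0.50 to 0.33). C1s1 had 174 ± 28.8 CPM in the BLM mice (SD, n = 4) and 154 ± 42.2 CPM in the BLM+HBO mice (SD, n = 3), with a log2 fold change of -0.18 (95% CI -0.61 to 0.25). C4b, the next component to be cleaved, was at 564, 519.6, 593 and 657 CPM in BLM 1 to 4 and 462, 804 and 373 CPM in BLM+HBO 1 to 3, and its log2 fold change was -0.10 (-0.62 to 0.43). C2, the protease partner of C4b, had 13.7 ± 1.83 CPM in the BLM mice (SD, n = 4) and 12.8 ± 3.92 CPM in the BLM+HBO mice (SD, n = 3) and a log2 fold change of -0.10 (-0.60 to 0.41). Masp1, the protease of the lectin pathway, had 6.23 ± 0.963 CPM in the BLM mice (SD, n = 4) and 4.38 ± 1.03 CPM in the BLM+HBO mice (SD, n = 3) and a log2 fold change of -0.51 (SE 0.24, 95% CI -1.05 to 0.03). Without BLM+HBO 2 the log2 fold change was -0.34 for C1ra, -0.42 for C1s1, -0.22 for C2 and -0.48 for C4b, all within a fold change of 1.5, and -0.71 for Masp1, which was then called. C1ra, C1s1 and C4b have near-identical copies (C1rb, C1s2 and C4a), and their levels are uncertain to the extent that the counting left out reads shared with them. C2 shares 42.8% of its exon bases with the overlapping gene Gm20547, and featureCounts at its default leaves out reads that fall on several genes.

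**Figure D3:**
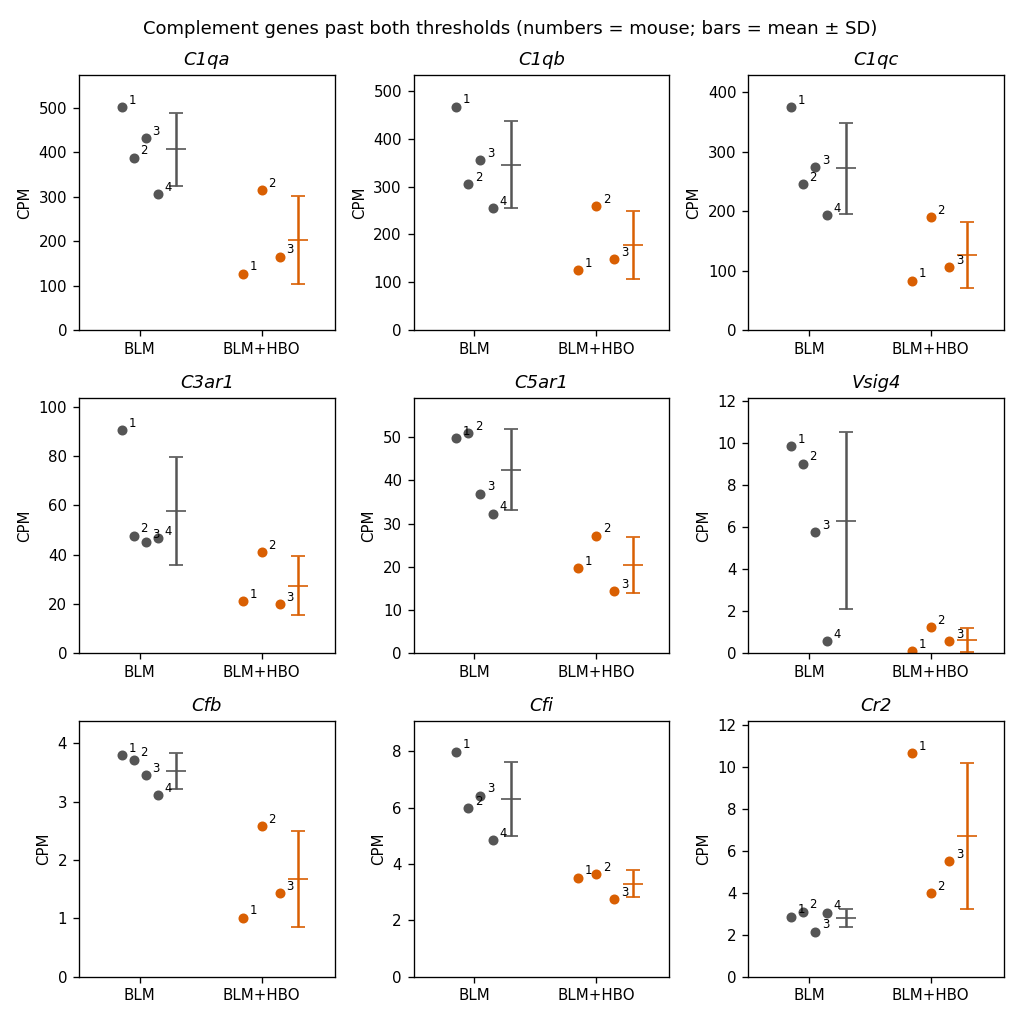
CPM of the 9 complement genes past both thresholds in each mouse (points, numbered by mouse) with the mean and SD of the group beside them, each panel starting at 0. In the panels of the 3 C1q chains, Cfb, Cfi, C3ar1, C5ar1 and Vsig4, BLM+HBO 2 is the highest of its group, and Cr2 is the panel in which all BLM+HBO mice lie above the BLM mice.

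C3, the component on which all pathways converge, had the highest level of its branch, with a mean of 238 CPM per kb over the 7 mice. C3 (ENSMUSG00000024164.15, chr17:57203970-57228136) was at 2157, 1230.1, 935 and 1431 CPM in BLM 1 to 4 and 769, 1544 and 508 CPM in BLM+HBO 1 to 3, and the groups overlapped, since BLM+HBO 2 was above 3 of the BLM mice. Its means were 1438 ± 520.4 CPM in the BLM mice (SD, n = 4) and 940.5 ± 539 CPM in the BLM+HBO mice (SD, n = 3), and it had a log2 fold change of -0.61 (SE 0.38, 95% CI -1.47 to 0.24), which became -1.17 without BLM+HBO 2, when it was called. Cfb (factor B, the protease of the alternative C3 convertase, ENSMUSG00000090231.10, chr17:34856374-34862518) fell without overlap from a far lower level. It was at 3.80, 3.72, 3.46 and 3.11 CPM in BLM 1 to 4 and 1.01, 2.58 and 1.42 CPM in BLM+HBO 1 to 3, with a log2 fold change of -1.07 (SE 0.34, 95% CI -1.84 to -0.30). Factor B shares 79.5% of its exon bases with Gm20547, for which 0 reads were counted in any mouse, so that its low level may hold a part of its reads only. Cfp (properdin, which stabilizes that convertase, ENSMUSG00000001128.7, chrX:20925454-20931555) was at 50.8, 43.8, 55.4 and 47.9 CPM in BLM 1 to 4 and 28.5, 48.6 and 34.0 CPM in BLM+HBO 1 to 3, and BLM+HBO 2 was inside the BLM range. Properdin had a log2 fold change of -0.42 (SE 0.18, 95% CI -0.81 to -0.02), within a fold change of 1.5, so that it was not called. Without BLM+HBO 2 its log2 fold change was -0.66 and it was called. Cfd (factor D, or adipsin, which cleaves factor B and is made by adipocytes) ranged from 1.16 to 4.96 CPM in BLM and from 1.06 to 4.80 CPM in BLM+HBO, with a log2 fold change of 0.22 (95% CI -1.02 to 1.46). The 7 adipocyte markers, of which 3 were tested and 0 called, summed to 51.7 to 81.4 CPM in BLM and 48.3 to 68.2 CPM in BLM+HBO.

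The terminal pathway genes C6 and C7, which encode components of the membrane pore, had log2 fold changes above 0, and neither was called. C7 (ENSMUSG00000079105.4, chr15:4988762-5063740), the higher of the pair per exon length, was at 103, 112, 44.9 and 141 CPM in BLM 1 to 4 and 174, 141 and 113 CPM in BLM+HBO 1 to 3. BLM 3 was the lowest of all mice and BLM+HBO 1 the highest, the groups overlapped, and C7 had a log2 fold change of 0.51 (SE 0.31, 95% CI -0.20 to 1.21). C6 had 31.7 ± 7.26 CPM in the BLM mice (SD, n = 4) and 36.4 ± 9.89 CPM in the BLM+HBO mice (SD, n = 3), with a log2 fold change of 0.20 (95% CI -0.29 to 0.69).

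Of the 4 complement regulators, Cfi fell and the others were not called. Cfi (factor I, the protease that inactivates C3b and C4b, ENSMUSG00000058952.12, chr3:129835884-129875332) was at 7.98, 5.97, 6.42 and 4.84 CPM in BLM 1 to 4 and 3.51, 3.64 and 2.74 CPM in BLM+HBO 1 to 3. All BLM+HBO mice, BLM+HBO 2 included, were below all BLM mice, and Cfi had a log2 fold change of -0.94 (SE 0.25, 95% CI -1.50 to -0.38), between -1.04 and -0.80 with each mouse left out. Serping1 (the C1 inhibitor, which also inhibits factor XII and kallikrein, ENSMUSG00000023224.12, chr2:84765387-84775444) had the highest level of the branch, a mean of 255 CPM per kb over the 7 mice. It was at 701, 664, 599.9 and 647 CPM in BLM 1 to 4 and 412, 727 and 394 CPM in BLM+HBO 1 to 3, with BLM+HBO 2 above and BLM+HBO 1 and BLM+HBO 3 below every BLM mouse, and had a log2 fold change of -0.35 (SE 0.21, 95% CI -0.82 to 0.12). Without BLM+HBO 2 its log2 fold change was -0.70 and it was called. Cd55 (decay-accelerating factor), which breaks up the convertases on the cell's own surface, had 68.9 ± 5.46 CPM in the BLM mice (SD, n = 4) and 82.5 ± 14.3 CPM in the BLM+HBO mice (SD, n = 3) and a log2 fold change of 0.26 (SE 0.13, 95% CI -0.03 to 0.55). Cd59a, which blocks the membrane pore, had 23.4 ± 2.51 CPM in the BLM mice (SD, n = 4) and 20.9 ± 6.24 CPM in the BLM+HBO mice (SD, n = 3) and a log2 fold change of -0.17 (95% CI -0.60 to 0.27). Cd55 and Cd59a have near-identical copies (Cd55b and Cd59b), which makes their levels uncertain in the same way as those of C1ra and C1s1.

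Among the complement receptors, 3 of 5 fell and 1 rose. C3ar1, the receptor for the C3a fragment (ENSMUSG00000040552.8, chr6:122847138-122856161), was at 90.3, 47.7, 45.3 and 46.7 CPM in BLM 1 to 4 and 21.0, 41.1 and 20.0 CPM in BLM+HBO 1 to 3. BLM 1 was far above the other BLM mice, BLM+HBO 2 was just below them, and the groups did not overlap. C3ar1 had a log2 fold change of -1.07 (SE 0.32, 95% CI -1.79 to -0.35), which was -0.77 without BLM 1. C5ar1, the receptor through which C5a draws in neutrophils and macrophages (ENSMUSG00000049130.6, chr7:16246743-16259540), had the highest level of the branch, with a mean of 12.8 CPM per kb over the 7 mice. It was at 49.8, 50.9, 36.9 and 32.3 CPM in BLM 1 to 4 and 19.6, 27.2 and 14.4 CPM in BLM+HBO 1 to 3, without overlap. It had a log2 fold change of -1.06 (SE 0.24, 95% CI -1.59 to -0.53), and with each mouse left out it ranged from -1.33 to -0.86. The second C5a receptor, C5ar2, which does not couple to G proteins, had 9.28 ± 1.86 CPM in the BLM mice (SD, n = 4) and 7.15 ± 2.06 CPM in the BLM+HBO mice (SD, n = 3) and a log2 fold change of -0.38 (SE 0.24, 95% CI -0.92 to 0.17). Without BLM+HBO 2 the log2 fold change of C5ar2 was -0.64 and it was called. Per exon length C5ar1 was 5.24 to 7.88 times C5ar2 in BLM and 3.40 to 4.49 times in BLM+HBO, without overlap. Beside these values, of 6 neutrophil markers 0 were called, and they summed to 163 to 225 CPM in BLM and to 486, 101 and 110.1 CPM in BLM+HBO 1 to 3.

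Vsig4 showed the largest fold change of the 35 genes. It encodes the C3b receptor CRIg, a marker of resident macrophages of several tissues. Vsig4 (ENSMUSG00000044206.3, chrX:96247203-96293438) was at 9.86, 9.02, 5.76 and 0.579 CPM in BLM 1 to 4 and 0.106, 1.24 and 0.562 CPM in BLM+HBO 1 to 3. BLM 1, BLM 2 and BLM 3 were far above the rest, BLM 4 was inside the range of the BLM+HBO mice, and the values in the latter rest on 2, 26 and 15 reads. Its log2 fold change was -3.28 (SE 0.91, 95% CI -5.33 to -1.23), with a range of -4.12 to -2.81 when each mouse was left out.

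Cr2 was the member that rose. It encodes complement receptors 1 and 2 of the mouse, which bind C3 fragments on B cells and follicular dendritic cells. Cr2 (ENSMUSG00000026616.16, chr1:195136811-195176716) was at 2.86, 3.10, 2.14 and 3.05 CPM in BLM 1 to 4 and 10.6, 3.97 and 5.51 CPM in BLM+HBO 1 to 3. All BLM+HBO mice were above all BLM mice, BLM+HBO 1 furthest, and Cr2 had a log2 fold change of 1.26 (SE 0.34, 95% CI 0.49 to 2.03), which was 0.77 without BLM+HBO 1. B cell genes moved the same way. Of 8 B cell markers, 7 were called higher and the eighth, Cd22, had a log2 fold change of 0.54, and their summed level was 80.8 to 147 CPM in BLM and 139.8 to 283 CPM in BLM+HBO, with BLM+HBO 1 the highest. The part of B cells in the rise of Cr2 was not tested.

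On the coagulation side, the initiator F3 and the fibrin cross-linker F13a1 fell, and F10 was not called. F3 (tissue factor, ENSMUSG00000028128.13, chr3:121723537-121735048) had the highest level of the coagulation factors, with a mean of 47.9 CPM per kb over the 7 mice. It was at 156, 114, 177 and 125 CPM in BLM 1 to 4 and 90.2, 118 and 65.4 CPM in BLM+HBO 1 to 3. BLM+HBO 1 and BLM+HBO 3 were below all BLM mice, BLM+HBO 2 was inside their range, and F3 had a log2 fold change of -0.65 (SE 0.22, 95% CI -1.13 to -0.17). The call was lost without BLM 3, when F3 was at -0.53, and without BLM+HBO 3 (-0.46), both within a fold change of 1.5. F13a1 (the catalytic A subunit of factor XIII, made by macrophages, monocytes and megakaryocytes, ENSMUSG00000039109.16, chr13:36867178-37050244) was at 210.1, 128, 83.5 and 51.8 CPM in BLM 1 to 4 and 61.4, 49.3 and 25.8 CPM in BLM+HBO 1 to 3. The BLM mice spanned a wide range, BLM 4 was inside that of BLM+HBO, and F13a1 had a log2 fold change of -1.38 (SE 0.45, 95% CI -2.39 to -0.37), between -1.66 and -0.95 with each mouse left out and called in all 7 fits. No platelet or megakaryocyte marker was called lower beside it. Of 9 such genes, 8 were tested, 3 were called higher (Ppbp, Gp1ba and Treml1) and Gp1bb was at 0 in every mouse. Their summed level was 45.7 to 63.6 CPM in BLM and 159, 61.7 and 56.4 CPM in BLM+HBO 1 to 3, so that only BLM+HBO 1 was above the BLM range. F10 (factor X, which tissue factor and factor VII activate) had 16.8 ± 1.81 CPM in the BLM mice (SD, n = 4) and 17.5 ± 3.77 CPM in the BLM+HBO mice (SD, n = 3), with a log2 fold change of 0.06 (95% CI -0.34 to 0.46). The span of F13a1, like those of C1s1, Cd55, Masp1, C2 and C7, overlaps genes on the other strand, and the counting did not use the strand. The exon bases shared with those genes are not given here, so the effect on these levels is uncertain.

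Of the 4 anticoagulant genes, Tfpi2 fell. Thbd (thrombomodulin, the endothelial receptor that turns thrombin towards protein C, ENSMUSG00000074743.4, chr2:148404466-148408188) had the highest level of the branch, with a mean of 143 CPM per kb over the 7 mice. It was at 401, 535, 461 and 559 CPM in BLM 1 to 4 and 624, 499 and 652 CPM in BLM+HBO 1 to 3. BLM+HBO 1 and BLM+HBO 3 were above all BLM mice, BLM+HBO 2 was among them, and thrombomodulin had a log2 fold change of 0.28 (SE 0.15, 95% CI -0.07 to 0.62). Per exon length it was 1.74 to 3.18 times F3 in BLM and 2.86 to 6.76 times in BLM+HBO, ranges that overlapped through BLM+HBO 2. Beside this, 0 of 7 endothelial markers were called, all 7 had log2 fold changes above 0, from 0.04 to 0.33, and they summed to 2055 to 2684 CPM in BLM and 2249.7 to 2936 CPM in BLM+HBO. Tfpi2, a Kunitz-type inhibitor of plasmin and other proteases in the matrix (ENSMUSG00000029664.10, chr6:3962595-3988919), was at 17.1, 10.7, 6.92 and 11.6 CPM in BLM 1 to 4 and 2.56, 8.14 and 5.10 CPM in BLM+HBO 1 to 3. BLM+HBO 2 was above BLM 3, the other BLM+HBO mice were below all BLM mice, and Tfpi2 had a log2 fold change of -1.13 (SE 0.40, 95% CI -2.03 to -0.24). It kept its direction with each mouse left out (-1.58 to -0.81) and was called in 4 of these 7 fits, the exceptions being those without BLM 1, BLM+HBO 1 or BLM+HBO 3. It was also not called with a replicate block (-1.13). Tfpi, the inhibitor of tissue factor itself, had 56.5 ± 7.01 CPM in the BLM mice (SD, n = 4) and 48.8 ± 12.6 CPM in the BLM+HBO mice (SD, n = 3), with a log2 fold change of -0.21 (95% CI -0.60 to 0.18). Procr, the endothelial protein C receptor, had 14.7 ± 2.37 CPM in the BLM mice (SD, n = 4) and 13.9 ± 2.49 CPM in the BLM+HBO mice (SD, n = 3), with a log2 fold change of -0.08 (-0.49 to 0.33).

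**Figure D4:**
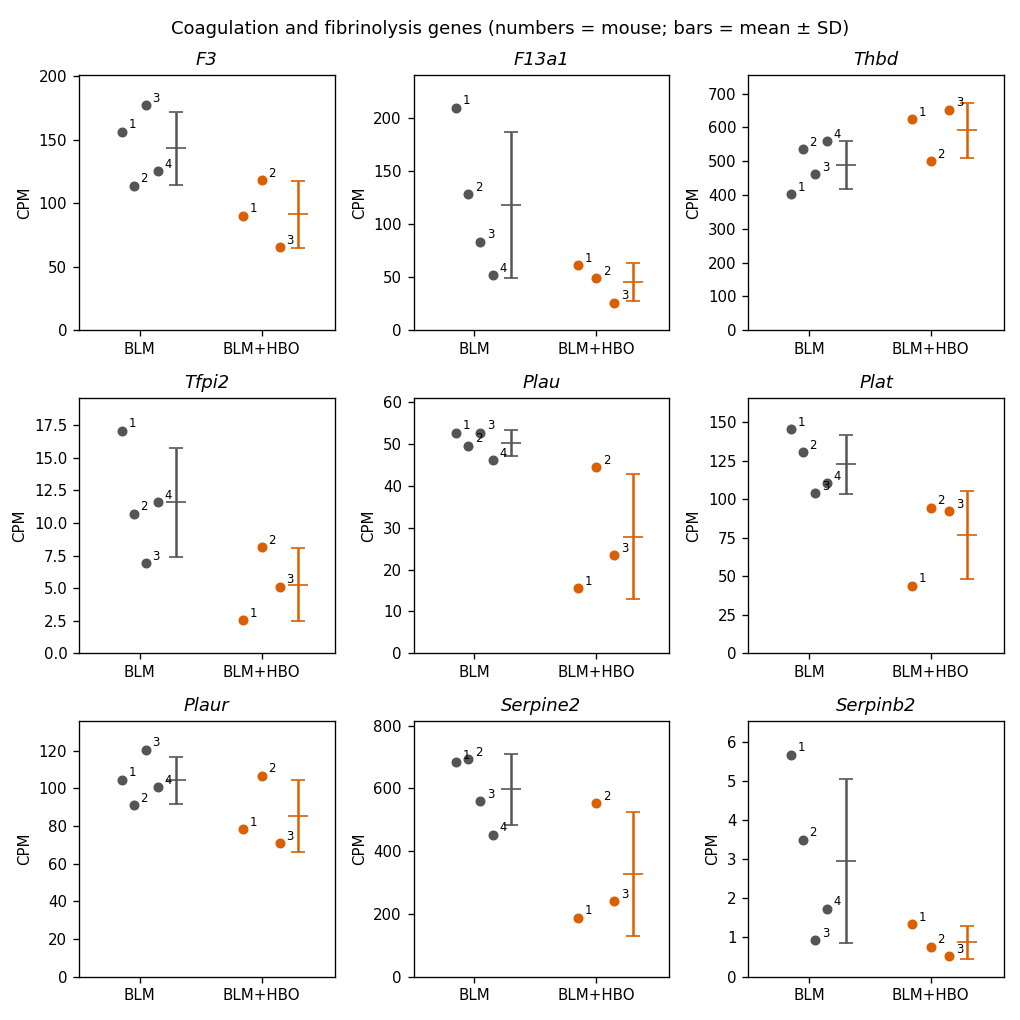
CPM of 9 of the 12 coagulation and fibrinolysis genes in each mouse (points, numbered by mouse) with the mean and SD of the group beside them, each panel starting at 0. The 7 genes past both thresholds are shown with Thbd and Plaur, which did not pass them, and Plau and Plat are the panels in which all BLM+HBO mice lie below all BLM mice.

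In the fibrinolytic branch both plasminogen activators fell, and so did the serpins that inhibit them. Plau (urokinase, ENSMUSG00000021822.3, chr14:20836660-20843385) was at 52.6, 49.5, 52.7 and 46.1 CPM in BLM 1 to 4 and 15.5, 44.5 and 23.5 CPM in BLM+HBO 1 to 3. The BLM mice lay close together, BLM+HBO 2 was just below them and the other mice far below, and Plau had a log2 fold change of -0.85 (SE 0.29, 95% CI -1.50 to -0.20). Plat (tissue plasminogen activator, ENSMUSG00000031538.6, chr8:22757727-22782844) was at 146, 131, 104 and 111 CPM in BLM 1 to 4 and 44.0, 94.5 and 92.2 CPM in BLM+HBO 1 to 3. The groups did not overlap, BLM+HBO 1 was the lowest, and Plat had a log2 fold change of -0.67 (SE 0.25, 95% CI -1.23 to -0.12). Both calls were lost without BLM+HBO 1, when Plau was at -0.57 and Plat at -0.40, within a fold change of 1.5. That of Plau was also lost without BLM+HBO 3 (-0.74), and that of Plat without BLM 1 (-0.58). Plaur, the urokinase receptor, had 104 ± 12.3 CPM in the BLM mice (SD, n = 4) and 85.3 ± 18.9 CPM in the BLM+HBO mice (SD, n = 3) and a log2 fold change of -0.29 (SE 0.16, 95% CI -0.64 to 0.06).

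Serpine2 (protease nexin, an inhibitor of thrombin and both activators, ENSMUSG00000026249.10, chr1:79794197-79861180) had the highest level of the branch, with a mean of 58.1 CPM per kb over the 7 mice. It was at 683, 694, 559.9 and 453 CPM in BLM 1 to 4 and 188, 553 and 241 CPM in BLM+HBO 1 to 3, with BLM+HBO 2 inside the BLM range and the other BLM+HBO mice far below it. Serpine2 had a log2 fold change of -0.87 (SE 0.34, 95% CI -1.63 to -0.11), and it was called in 3 of 7 fits with 1 mouse left out, namely with BLM 3 (-0.90), BLM 4 (-0.98) or BLM+HBO 2 (-1.48) removed. Serpinb2 (plasminogen activator inhibitor type 2, made by monocytes and macrophages, ENSMUSG00000062345.10, chr1:107511423-107535478) was low and variable. It was at 5.67, 3.49, 0.933 and 1.74 CPM in BLM 1 to 4 and 1.33, 0.766 and 0.525 CPM in BLM+HBO 1 to 3. BLM 1, BLM 2 and BLM 4 were above all BLM+HBO mice, BLM 3 was inside their range, and Serpinb2 had a log2 fold change of -1.77 (SE 0.62, 95% CI -3.16 to -0.38), which was no longer called without BLM 1 (-1.25) or without BLM+HBO 3 (-1.50). It shares 12.4% of its exon bases with Serpinb10, for which 271 reads were counted in all. Fibroblast and mesothelial markers moved beside this branch. Of 8 fibroblast genes, 3 were called lower (Col1a2, Dcn and Lum) and 2 higher (Tcf21 and Inmt), and they summed to 2720.1 to 4199 CPM in BLM and 1977 to 3103 CPM in BLM+HBO. Of 5 mesothelial genes, 2 were called lower (Msln and Wt1), with 422 to 715 CPM in BLM and 126 to 488 CPM in BLM+HBO. The part of these cells in the values of the branch was not tested.

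The other genes of the 3 systems gave fewer calls. Of 79 further complement, coagulation and fibrinolysis genes, 59 passed the filter, 2 were called lower (3.39%) and 1 higher (1.69%), shares near those of all genes, and their median log2 fold change was -0.13. At P below 0.05 with any fold change, 6 were lower (10.2%, against 5.54% of all genes) and 1 was higher. The log2 fold change was below 0 for 38 and above 0 for 21. Fcna (ficolin A, a lectin of macrophages that starts the lectin pathway) fell without overlap. It was at 12, 9.64, 8.18 and 3.90 CPM in BLM 1 to 4 and 1.44, 3.83 and 1.84 CPM in BLM+HBO 1 to 3, with a log2 fold change of -1.83 (SE 0.45, 95% CI -2.83 to -0.83). Hc, which encodes C5, rose in BLM+HBO and was at 77.0, 143, 149 and 286 CPM in BLM 1 to 4 and 392, 154 and 663 CPM in BLM+HBO 1 to 3, with ranges that overlapped and a log2 fold change of 1.30 (SE 0.49, 95% CI 0.20 to 2.40). With 1 mouse left out, the log2 fold change of Hc was 0.73 to 1.71, and it was called in 3 of 7 fits. Vwf (von Willebrand factor), Pros1 (protein S), F2r (the thrombin receptor) and S100a10 (a plasminogen-binding protein of the cell surface) had P below 0.05 within a fold change of 1.5, with log2 fold changes of -0.41, -0.42, -0.55 and -0.41.

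The calls differed in how well they held across the alternative fits. Of the 16 calls, 10 were made in every one of the 13 alternative fits, and these were the 9 complement genes and F13a1. The other 6, all of them coagulation or fibrinolysis genes (F3, Tfpi2, Plau, Plat, Serpine2 and Serpinb2), kept their direction but lost the call in at least 1 fit. With 1 mouse left out, the number of members called lower was between 10, without BLM+HBO 3, and 20, without BLM+HBO 2. The groups did not overlap for 7 members that were lower (C1qc, Cfb, Cfi, C3ar1, C5ar1, Plau and Plat), where 4.72% of all genes tested were lower without overlap, and for 1 that was higher (Cr2), where 4.05% of all genes were, in all 8 members against 8.77% of all genes.

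**Figure D5:**
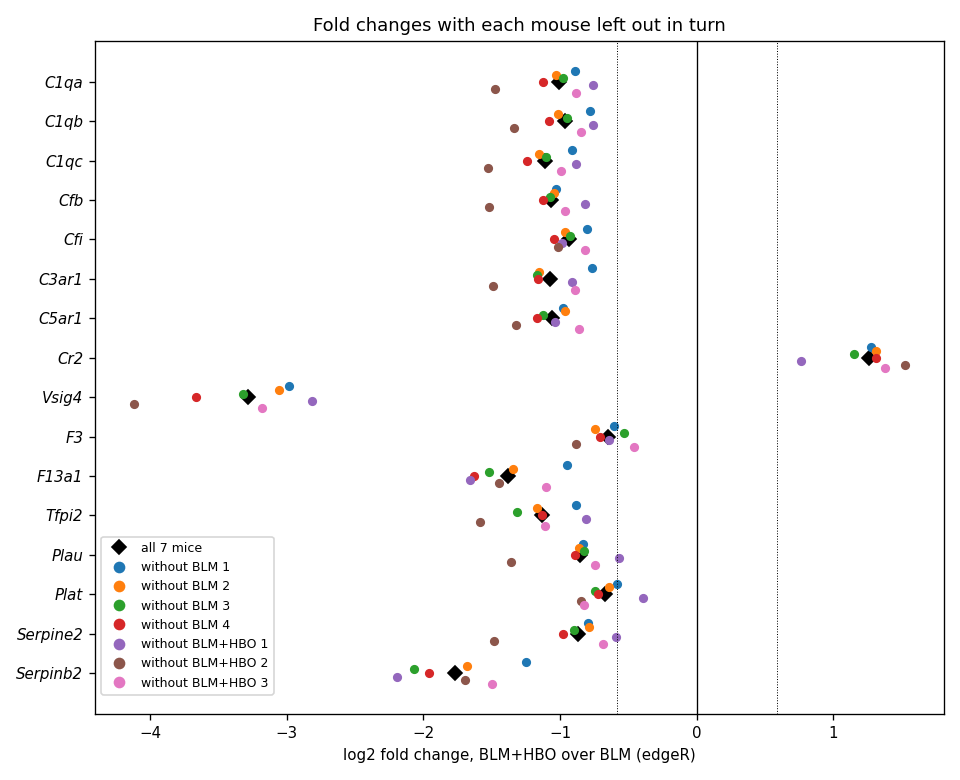
Log2 fold change of BLM+HBO over BLM by edgeR for the 16 genes past both thresholds, with all 7 mice (black diamonds) and with each mouse left out in turn (coloured points), and dotted lines at a fold change of 1.5. The brown points, without BLM+HBO 2, lie furthest from 0 for most genes, as for C1qa at -1.48. The purple points, without BLM+HBO 1, lie nearer to 0 for Plau (-0.57) and Plat (-0.40). The pink point, without BLM+HBO 3, lies nearer to 0 for F3 (-0.46).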

How the data were processed

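RNA of 7 mouse lungs was measured by RNA-seq, with 1 library per mouse. Per the labels and the Supplementary methods, the authors used NEBNext Ultra libraries, aligned the reads on GRCm38 by HISAT2, and counted reads per gene by featureCounts at default settings. The deposited values are these raw counts. Strand was not used and reads on several genes were left out. The submitters' processing notes give version 2.2.0 for both tools, the release of the annotation is not given in the sources used here, and the Supplementary methods name another featureCounts version.

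GENCODE vM21 named 55141 of 55401 genes, with 54349 identifiers in the same version, and every value column had its mouse. The depth was 18157161 to 26365969 reads per mouse, and low genes such as Vsig4 and Serpinb2 had few reads in several mice. The part of depth in their spread was not tested. After filterByExpr (a minimum count of 10 and a minimum total of 15) and TMM normalization, all 17465 remaining genes were tested by edgeR 4.0.16 in R 4.3.3 (two-sided quasi-likelihood test, common biological coefficient of variation 0.222, BLM as the reference), and tables were made in Python 3.11.15. The limits for a call (P below 0.05, fold change over 1.5) are the study's, and Benjamini-Hochberg adjusted P was taken over all genes. Log2 CPM had a prior count of 2. Libraries were compared pairwise over genes with 20 or more reads in both together. The scripts were tested on simulated data.

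The members, their branches, the 79 further pathway genes and the 14 marker lists were chosen with earlier results of these data known. All members are given. Every mouse is given for members with P below 0.05 and for the member of each branch with the highest level per exon length, and further pathway genes with P below 0.05 are named. Some further pathway and marker genes, and the ratios that use them, are counted but not reported here by name. Alternatives were DESeq2 1.42.0, RLE factors, no filter, a filter at 1 CPM (3 mice), edgeR's robust option, a replicate block, no limit on fold change and leaving out each mouse. Promoters were RefSeq sequences of GRCm38.p6. The labels give no batch, and P weighs the difference between the groups against the spread between these mice, which edgeR estimates partly from all genes.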

Additional observations from a re-analysis of the deposited data

Results flagged for a closer look

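C3ar1, the C3a receptor, stood apart in 1 BLM mouse. Its log2 CPM was 6.498 in BLM 1, whereas the remaining BLM mice lay between 5.50 and 5.58. That gap made up 0.924 of the whole spread in BLM, more than Dixon's test allows at 95% for 4 samples. The test was made for 35 genes, and chance alone passes this value in about 1 group in 20. Without BLM 1, C3ar1 was still called, at a log2 fold change of -0.77.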

How the results depend on the processing

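The number of members called lower was 14 to 16 under the alternatives that kept all mice and 10 to 20 with each mouse left out. The number called higher was 1 or 2 (1 to 2 with a mouse left out). Of 208 values of called members, 192 kept direction and call, 16 lost the call and 0 changed direction. Of 247 values of members not called, 9 gained a call, 7 of them with 1 mouse left out, 1 with no filter (C3, -0.62) and 1 with a replicate block (C7, 0.80), and 11 changed direction, each with 1 mouse left out, so that the direction rested on single mice for C1ra (-0.34 to 0.11), C2 (-0.24 to 0.14), C4b (-0.48 to 0.12), Cfd (-0.22 to 0.68), C6 (-0.022 to 0.38), F10 (-0.040 to 0.23) and Procr (-0.24 to 0.026). At adjusted P below 0.05 the members were 0 by edgeR (17 at unadjusted P below 0.05), 3 by DESeq2, 11 with no filter on low counts and 0 to 8 with a mouse left out, and the lowest adjusted P over the members ranged from 0.00234 (no filter) to 0.802 (without BLM+HBO 1). Members without overlap between groups were 8, and 8 to 26 with a mouse left out. The 26 came without BLM+HBO 2, when fewer mice were left in that group. The share over all genes was not counted for the 26, nor for the 11 members with no filter, so neither number has a background beside it. Of the further pathway genes, 2 were called lower, 1 by DESeq2 and with robust empirical Bayes, 4 with no filter and 6 with no limit on fold change (1 to 8 with a mouse left out), and 1 higher (0 to 3). Over all genes, 504 were called lower and 594 higher, 863 and 1077 with no filter and 968 and 893 with no limit on fold change, and 303 to 968 and 345 to 946 with a mouse left out. The cause was not tested where the number of genes or mice did not itself change.

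Mice of the groups share replicate numbers, but samples of 1 number did not deviate together (correlations of -0.008, -0.066 and 0.161), not every mouse correlated most with its own number, and the numbers were not taken as pairs. With a replicate block 14 members were called lower, Tfpi2 (-1.13) losing its call, 2 higher (Cr2 and C7) and 4 further pathway genes lower. No BLM+HBO mouse has the number of BLM 4, so in this fit BLM 4 did not inform the difference between the groups. C7 was also called without BLM 4 (0.72). Vsig4 and Serpinb2 had few reads in several mice and varied widely, Vsig4 with 179, 160, 105 and 11 reads in BLM 1 to 4. The calls of F3, Tfpi2 (also lost under the block), Plau, Plat, Serpine2 and Serpinb2 were lost in at least 1 fit with a mouse left out. Some losses came with little change of the log2 fold change, as for Tfpi2 without BLM+HBO 3 (-1.11, edgeR P 0.0501).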
